A study of Mus musculus with 16 samples.

Results

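Papss2 and 9 other genes of sulphate supply and glycosaminoglycan sulphation were described in mouse blastocysts exposed to kinase inhibitors. A probe set, the group of array probes that reports 1 transcript, was taken if the platform annotation named 1 of these genes and no other gene, which gave 23 probe sets of the 45037 measured in all samples. They covered 9 of the 10 genes: Papss2, Papss1, Slc26a2, Hs2st1, Hs6st1, Ext1, Ext2, Sulf1 and Sdc4. Ndst1, the N-deacetylase and N-sulphotransferase of heparan sulphate, was named for no probe set in the annotation used and was not analysed here. Papss2 was chosen because its signal was low with SB203580 and U0126, so its values in these contrasts are given as a description without a test.

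The samples were preimplantation mouse embryos at the blastocyst stage, 12 in all, in 4 groups of 3 replicates. One group had no named treatment and served as control. The others had received 20 µM SB203580, which blocks p38 kinases, 25 µM SP600125, which blocks JNK, or 20 µM U0126, which blocks MEK. Strain, exposure time, number of embryos pooled and solvent were not given in the labels. Replicate 1 of each group was labelled by a small sample assay and read on a 430A and a 430B array, and replicates 2 and 3 by a two-cycle assay on 430 2.0 arrays. Groups were compared within array type, because the level of a probe set cannot be set against its level on another array type. Nothing in the labels tells whether the replicates came from separate pools or cultures, so a p-value here reflects only how far these samples differ, which may be technical.

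Sulphate enters cells through transporters such as the one encoded by Slc26a2, and the enzymes encoded by Papss1 and Papss2 join it to ATP to make PAPS, the donor used by sulphotransferases. The polymerase encoded by Ext1 and Ext2 builds the heparan sulphate chain on core proteins such as syndecan-4, the product of Sdc4. The enzymes encoded by Ndst1, Hs2st1 and Hs6st1 then add sulphate to the nitrogen and to the 2-O and 6-O positions, and the enzyme encoded by Sulf1 removes 6-O sulphate outside the cell. Sulphated heparan chains serve as co-receptors for fibroblast growth factors, and in the blastocyst FGF signalling acts in the split between epiblast and primitive endoderm.

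The sequences before the starts of the paralogues Papss2 and Papss1 are shown because 1 of these genes had low signal with inhibitors and the other did not pass any test. They are from RefSeq on GRCm38.p6, plus strand, and run from 250 to 51 bases before the first start listed for each gene, at chr19:32595465-32595664 for Papss2 and chr3:131564518-131564717 for Papss1. The start used was not the first base of the gene. The genes begin at 32595669 (Papss2) and 131564764 (Papss1), so the Papss2 window ends nearer to its gene than the Papss1 window does. Neither window overlapped a gene in the RefSeq table. Capitals mark a GC box (GGGCGG on either strand).
Papss2: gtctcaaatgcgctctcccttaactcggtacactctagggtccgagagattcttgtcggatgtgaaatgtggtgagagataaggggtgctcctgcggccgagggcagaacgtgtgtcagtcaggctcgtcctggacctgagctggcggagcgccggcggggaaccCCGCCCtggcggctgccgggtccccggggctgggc
Papss1: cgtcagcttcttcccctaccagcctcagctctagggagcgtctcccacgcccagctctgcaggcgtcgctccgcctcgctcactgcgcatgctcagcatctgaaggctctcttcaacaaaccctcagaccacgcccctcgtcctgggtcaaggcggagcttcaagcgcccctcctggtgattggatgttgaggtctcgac
The Papss2 window held 1 GC box and the Papss1 window 0, where 24.6 percent of 32851 promoter windows of the same length held at least 1. The G and C content was 65.0 percent for Papss2 and 62.5 percent for Papss1. The AP-1 motif, searched as TGANTCA on both strands like all others, was in neither window and in 5.57 percent of all. The cyclic AMP response element, TGACGTCA, was in neither and in 0.828 percent of all. The ETS motif, searched as CCGGAAG, was in neither and in 3.98 percent of all. The letters TATAAA of a TATA box were in neither and in 9.14 percent of all. The windows stop 51 bases before the start, so this search cannot tell whether a TATA box lies nearer to it. Each gene had a second start in the table, which was not searched.

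Papss2 was read by 4 probe sets, of which 1434510_at was the brightest on the 430 2.0 arrays. Its signal in the controls was 146.1 in replicate 1, on the 430A array, and 337.3 and 388.2 in replicates 2 and 3. With SB203580 it was 19.0, 21.1 and 75.3, and with U0126 it was 35.7, 80.9 and 51.4. With SP600125 it was 51.3, 99.9 and 106.8. Every control sample lay above every inhibitor sample of its array type, and SP600125 was the highest of the inhibitor groups on both array types.

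On the scale of log2(signal + 12.6), the constant being the 20th percentile of 430 2.0 signals, the Papss2 difference from control on 1434510_at was -2.63 ± 0.42 (SE, n = 3) with SB203580, a 6.20-fold lower level. Since 2 of the SB203580 signals lay near the constant, this size depends on it, with -1.92 for a constant of 50 and -3.06 for a constant of 1. It was -2.09 ± 0.42 with U0126, 4.25-fold lower, and -1.57 ± 0.42 with SP600125, 2.96-fold lower. Against the mean of the controls on the same type of array, the SB203580 replicates lay at -2.33, -3.47 and -2.09. The U0126 replicates lay between -2.55 and -1.72, and the SP600125 replicates at -1.31, -1.73 and -1.65. The 3 contrasts share the control samples, and the gene was chosen on the SB203580 and U0126 contrasts, so no p is given. The call on which the choice rested was lost for SB203580 without control replicate 2 or 3 (differences of -2.62 and -2.52), and for U0126 in each of the 6 omissions of 1 sample (differences of -2.24 to -1.91). On the 430 2.0 arrays alone the 3 differences were -2.78, -2.28 and -1.69, in the order SB203580, U0126 and SP600125.

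Between inhibitors, Papss2 on 1434510_at differed by -0.54 ± 0.42 for SB203580 minus U0126 (SE, n = 3). The 430 2.0 signals of these groups overlapped, since the SB203580 replicate at 75.3 lay between the U0126 replicates. The value with SB203580 differed from that with SP600125 by -1.07 ± 0.42 and that with SP600125 from U0126 by 0.52 ± 0.42. All 3 are descriptions without a test, since the SB203580 and U0126 samples had been used to choose the gene. In the order of levels, control, SP600125, U0126 and SB203580, the last neighbours overlapped on the 430 2.0 arrays, and the others did not.

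The other Papss2 probe sets were dim and did not repeat this order. On 1421987_at the controls had 104.7, 73.8 and 38.7, and the SB203580 samples 36.4, 44.8 and 36.4. The SP600125 samples had 92.4, 63.8 and 87.5, and the U0126 samples 25.7, 12.7 and 79.7. The differences from control were -0.64 ± 0.53 (SB203580), 0.21 ± 0.53 (SP600125) and -0.85 ± 0.53 (U0126), and each inhibitor group overlapped the controls on the 430 2.0 arrays. The remaining pair, 1421989_s_at and 1421988_at, did not reach the signal required for testing, a mean of 42.9 on the 430 2.0 arrays. Their signals lay between 2.5 and 80.9 in all 12 samples. On 1421989_s_at the SB203580 samples, at 24.5, 5.1 and 2.5, were below the controls of their array type, by -0.07, -1.38 and -1.61 log2 units from the control mean, and the U0126 and SP600125 samples overlapped the controls on the 430 2.0 arrays. On 1421988_at both SB203580 samples on the 430 2.0 arrays, at 38.5 and 10.7, were above the controls, at 3.1 and 3.2. The separation of controls from all inhibitor samples was thus seen on 1 of the 4 Papss2 probe sets.

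**Figure D1:**
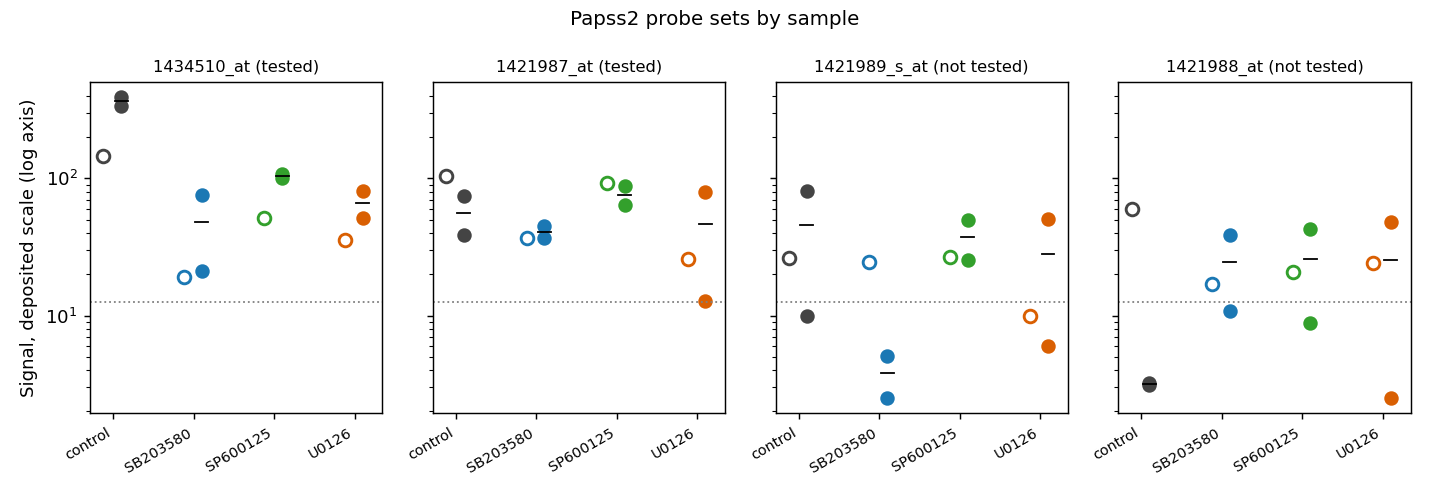
Signal of each Papss2 probe set (vertical, log axis, deposited scale) in the control, SB203580, SP600125 and U0126 groups. Open circles are replicate 1 on the 430A array, filled circles replicates 2 and 3 on 430 2.0 arrays, short lines the mean of those 2, and the dotted line the added constant of 12.6; on 1434510_at the controls lie above all inhibitor samples of their array type, and no other probe set separates the controls from all inhibitor samples.

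Papss1, the other PAPS synthase gene, had 1 probe set, 1415890_at. Its signal was 638.6, 825.0 and 552.5 in the control group. SB203580 samples read 745.1, 658.5 and 519.0, SP600125 samples 504.9, 736.8 and 429.0, and U0126 samples 581.5, 599.3 and 599.1. Every inhibitor group overlapped the controls on the 430 2.0 arrays. SB203580 stood at -0.06 ± 0.22 from control (95 percent interval -0.54 to 0.41), SP600125 at -0.28 ± 0.22 (-0.76 to 0.19) and U0126 at -0.16 ± 0.22 (-0.63 to 0.32). The adjusted p in limma was 0.962, 0.83 and 0.829. These intervals leave out a fall of 1 log2 unit, and they do not show that Papss1 was unaltered.

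Slc26a2, the sulphate transporter gene, had 3 tested probe sets that did not move together. On the brightest, 1427195_at, the controls had 167.0, 621.1 and 362.9 and the U0126 samples 220.0, 818.9 and 900.5. The U0126 samples were higher than the controls of their array type, at 0.68 ± 0.27 (limma adjusted p = 0.311). SB203580 and SP600125 stood at -0.19 ± 0.27 and -0.07 ± 0.27 on this probe set. On 1443882_at, the controls had 1076.3, 402.4 and 318.9, and the SP600125 samples 639.2, 226.2 and 262.9. SP600125 was lower in each replicate, at -0.60 ± 0.22 (adjusted p = 0.382), while U0126 stood at -0.04 ± 0.22. On 1421145_at no difference from control exceeded 0.49 ± 0.40, the value with SP600125. The largest Slc26a2 difference between inhibitors was SB203580 minus U0126 on 1427195_at (-0.87 ± 0.27, adjusted p = 0.134).

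The chain polymerase genes Ext1 and Ext2 had no call. Ext1 on 1417730_at had 361.6, 566.5 and 512.2 in controls and 314.2, 391.6 and 257.4 with U0126. This was the largest Ext1 difference on that probe set, lower in each replicate and not overlapping, at -0.56 ± 0.27 (limma adjusted p = 0.42). SB203580 was lower in each replicate too and did not overlap, at -0.28 ± 0.27, with an adjusted p of 0.817 in limma. The dimmer Ext1 probe set 1458054_at stood at 0.87 ± 0.54 with U0126, the opposite sign. Ext2, which forms the polymerase with the Ext1 product, was at 0.15 ± 0.21, 0.11 ± 0.21 and -0.01 ± 0.21 with SB203580, SP600125 and U0126 on 1460170_at. Its second tested probe set 1447743_x_at lay between 0.02 and 0.34, and the third, 1447319_at, was under the signal limit.

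The sulphotransferase genes of the chain were likewise not called. Hs2st1, for 2-O sulphation, had 4 tested probe sets, and its brightest, 1450729_at, had 735.1, 1266.1 and 969.0 in controls and 759.9, 1399.0 and 1707.8 with U0126. The U0126 samples were higher in each array type, at 0.33 ± 0.18 (limma adjusted p = 0.484). SB203580 was at 0.27 ± 0.18 and SP600125 at 0.03 ± 0.18. The other 3 Hs2st1 probe sets lay between -0.29 and 0.20 over the 3 inhibitors. Hs6st1, for 6-O sulphation, had 532.0, 418.1 and 303.3 in the control group. SB203580 samples read 434.0, 309.2 and 314.9, SP600125 samples 438.6, 395.8 and 341.7, and U0126 samples 682.8, 395.9 and 321.0. All groups overlapped the controls on the 430 2.0 arrays, and the differences were -0.22, -0.06 and 0.12, each with an SE of 0.22.

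Sdc4, the gene of the cell surface core protein syndecan-4, had the narrowest errors. On 1448793_a_at the signal was 7325.5, 18998.1 and 18177.0 in controls and 7283.6, 20756.3 and 22811.4 with SP600125. The differences from control were 0.05, 0.15 and -0.05 with SB203580, SP600125 and U0126, each with an SE of 0.09, and no interval reached beyond 0.35 in size. The dimmer probe set 1417654_at spread more. Its replicate 1 signal was 1027.8 in control, 1949.7 with SP600125 and 421.0 with U0126, while replicates 2 and 3 gave 784.5 and 710.5 in controls, 726.8 and 1283.3 with SP600125 and 918.1 and 915.5 with U0126. Its differences were 0.55 ± 0.32 with SP600125 and -0.23 ± 0.32 with U0126 (adjusted p = 0.708 and 0.827).

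Sulf1, the extracellular 6-O sulphatase gene, had 3 probe sets and none reached the signal for testing. On the brightest, 1438200_at, the 430 2.0 signals were 83.5 and 64.9 for the control group, 4.5 and 53.6 for SB203580, 64.3 and 40.9 for SP600125, and 14.3 and 3.0 for U0126. The controls lay above the inhibitor samples there, but replicate 1 on the 430B array did not repeat it, with 318.7 for control, 253.0 for SB203580, 402.6 for SP600125 and 387.4 for U0126. No level of Sulf1 can be compared from these values.

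Of the 23 probe sets, 17 were bright enough to be tested, for 8 genes. Leaving out the pair for Papss2, 0 of 15 were called at an adjusted p under 0.05 in any of the 6 comparisons with limma. Over all probe sets tested, 0.389 percent were called with SB203580 against control, 0.592 percent with SP600125 and 0.448 percent with U0126. For pairs of inhibitors the shares were 0.788 percent for SB203580 against SP600125, 1.37 percent for SB203580 against U0126 and 2.93 percent for SP600125 against U0126. At these shares fewer than 1 call would fall among 15 probe sets, and 0 calls is near the background. Unadjusted p-values under 0.05 were reached by 0, 1 and 1 of the 15 for SB203580, SP600125 and U0126 against control, and by 1, 1 and 4 for the pairs in the order above. Over all probe sets the share was 8.52 to 17.4 percent in the 6 comparisons. The median of the 15 differences from control was 0.00, -0.06 and 0.03, and that of all probe sets 0.01, -0.00 and 0.06.

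**Figure D2:**
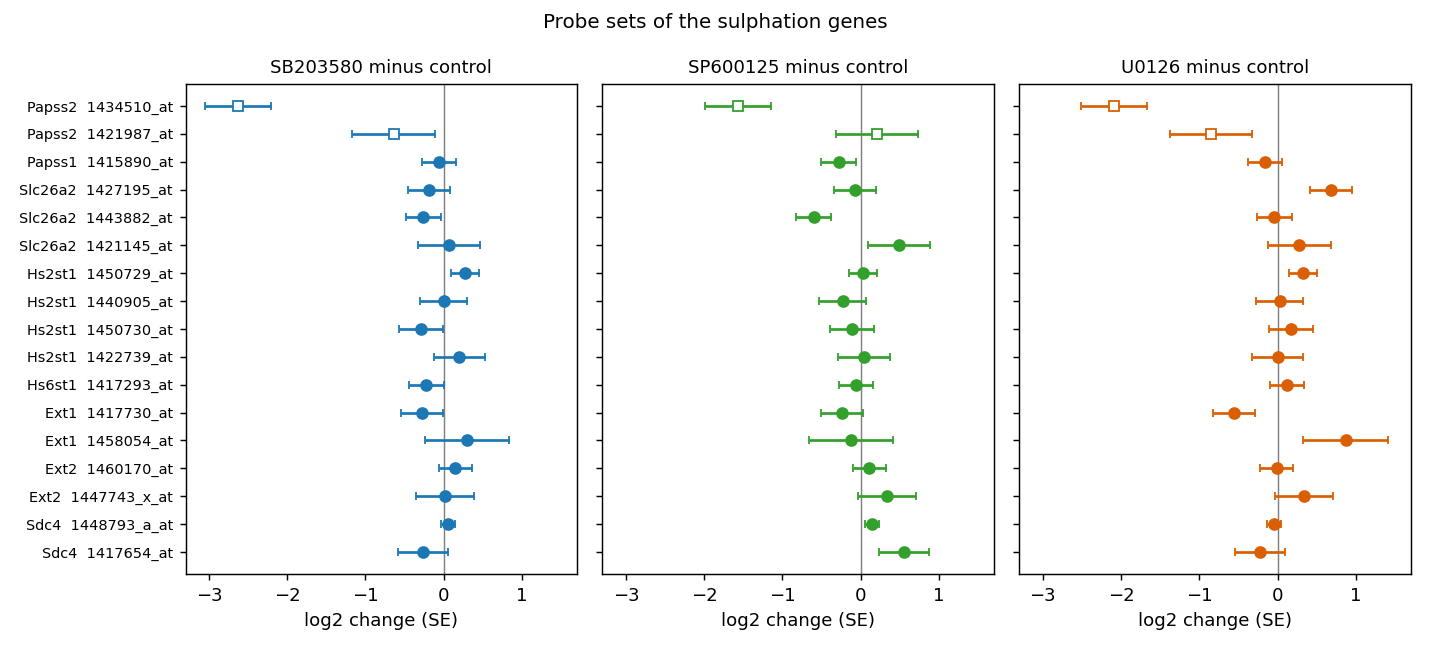
Difference from control on the log2(signal + 12.6) scale (horizontal, bars are SE, 3 samples per group) for the 17 tested probe sets, with 1 panel for each inhibitor. Open squares are Papss2, which was chosen for these values with SB203580 and U0126, and filled circles are the other genes, none of which was called; 1434510_at stands at -2.63, -1.57 and -2.09 and the filled circles between -0.60 and 0.87.

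The wider pathway was read from 7 lists with 124 genes, of which 115 were measured and 84 tested. Besides Papss2, 0 passed with SB203580 or U0126 against control, where 0.698 and 0.793 percent of all 12614 genes had at least 1 called probe set. Genes called lower were 0.531 and 0.492 percent of all in these contrasts. With SP600125, 2 passed and both fell, where 0.951 percent of all genes had a call and 0.547 percent a lower one. The median over the 83 tested pathway genes other than Papss2, 1 probe set per gene, was -0.10, -0.07 and 0.02 with SB203580, SP600125 and U0126, and over all genes 0.01, -0.00 and 0.05.

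Chst11, which encodes a chondroitin 4-O-sulphotransferase, was 1 of the genes that fell with SP600125. On 1428902_at its signal was 1198.5, 691.7 and 446.4 in controls and 545.4, 224.9 and 168.8 with SP600125. It was 940.5, 151.4 and 207.9 with SB203580 and 1318.7, 614.8 and 595.1 with U0126. The SP600125 and SB203580 samples were below the controls on each array type, while the U0126 samples overlapped them. The fall with SP600125 was -1.34 ± 0.27 (limma adjusted p = 0.0293), and it lost its call in each of the 6 omissions of 1 sample, at -1.52 to -1.11. The adjusted p in limma was 0.0695 on the 430 2.0 arrays only and 0.207 without the intensity trend in the variance model. With SB203580 Chst11 stood at -1.17 ± 0.27 (adjusted p = 0.0762) and with U0126 at 0.12 ± 0.27 (adjusted p = 0.9). SB203580 minus SP600125 was 0.17 ± 0.27 (limma adjusted p = 0.895), so no difference between these 2 groups was called.

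Tested directly, Chst11 was lower with SP600125 than with U0126 (-1.47 ± 0.27, limma adjusted p = 0.00641), a call kept in each of the 6 omissions and lost without the intensity trend (adjusted p = 0.0716). It was lower with SB203580 than with U0126 (-1.29 ± 0.27, adjusted p = 0.0217), a call lost without SB203580 replicate 2 or 3 (-1.03 and -1.26) and without U0126 replicate 2 or 3 (-1.21 and -1.24). With only the 2 groups compared its adjusted p in limma was 0.0579, and without the intensity trend 0.148. Among all genes, 2.37 and 1.36 percent were called lower in these comparisons. The second tested Chst11 probe set, 1450509_at, was dim, with 18.3 to 144.2 over all samples. It stood at 0.00 ± 0.56 with SB203580, -0.48 ± 0.56 with SP600125 and -0.10 ± 0.56 with U0126. Between inhibitors it was at 0.11 ± 0.56 for SB203580 minus U0126 and -0.37 ± 0.56 for SP600125 minus U0126, so it did not repeat these calls.

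Srgn, the gene of the intracellular proteoglycan serglycin, was the other fall with SP600125. Its signal was 984.0, 2383.3 and 2279.1 in controls and 260.8, 533.6 and 782.9 with SP600125, without overlap on either array type. The change was -1.84 ± 0.30 (limma adjusted p = 0.00655), and the call was lost without control replicate 1 (-1.63) or SP600125 replicate 2 (-1.62), and without the intensity trend (adjusted p = 0.16). With SB203580 the Srgn signal was 257.0, 1914.6 and 1764.9, so that replicate 1 lay far lower than replicates 2 and 3 against their controls (-1.89, -0.28 and -0.40). With U0126 the signal was 432.0, 882.9 and 1890.6. Every SB203580 and U0126 sample thus lay below the Srgn controls of its array type. The differences were -0.86 ± 0.30 with SB203580 and -0.95 ± 0.30 with U0126, and neither was called (limma adjusted p = 0.324 and 0.197).

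By role, the 7 tested genes of sulphate donor supply other than Papss2 had medians of -0.06, -0.07 and 0.02 with SB203580, SP600125 and U0126 and no call. The 10 tested genes of the linker and its sugar precursors had medians of 0.12, 0.00 and 0.16 and no call. The 13 tested heparan sulphate genes had medians of -0.28, -0.16 and 0.12 and no call, and 10 of 13 had negative values with SB203580 and with SP600125. These 2 contrasts share the controls, and the median of all genes in them was 0.01 and -0.00. Other lists held a similar share of negative values. The 11 chondroitin and dermatan sulphate genes had medians of -0.16, -0.25 and -0.02, with Chst11 the 1 call. Of these 11 genes 9, 9 and 6 had negative values. The 11 keratan and other sulphotransferase genes had -0.01, 0.03 and 0.13 and the 13 breakdown genes -0.04, -0.07 and -0.01, with no call in either. The 18 core protein genes had -0.35, -0.05 and -0.02, with Srgn the 1 call, and 14, 10 and 9 of them had negative values. Negative values were held by 3, 5 and 3 of the linker genes and 6, 4 and 5 of the keratan list. In the breakdown list 7, 9 and 7 were negative.

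Between inhibitors, the 84 tested pathway genes gave 0 calls for SB203580 against SP600125, where 1.27 percent of all genes had a call and 0.888 percent a lower one. They gave 2 for SB203580 against U0126, Chst11 and Tpst2, against 2.26 percent of all genes. Tpst2, which encodes a tyrosylprotein sulphotransferase, had 737.7 and 639.1 in the controls on the 430 2.0 arrays and 1209.4 and 1029.6 with U0126. It was lower with SB203580 than with U0126 by -0.74 ± 0.17 (limma adjusted p = 0.042), a call lost in each of the 6 omissions at -0.83 to -0.65. It was also lost in 5 of 9 other settings, with no filter, quantile normalization, the 430 2.0 arrays only, only the 2 groups compared or no intensity trend (limma adjusted p of 0.0576, 0.0638, 0.189, 0.116 and 0.122). Tpst2 was lower with SP600125 than with U0126 by -0.88 ± 0.17 (adjusted p = 0.0102), lost without SP600125 replicate 2 (-0.83) and without the intensity trend (adjusted p = 0.0501).

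For SP600125 against U0126, where 4.69 percent of all genes had a call, 5 pathway genes did. Besides Chst11 and Tpst2 these were Agrn, of the basement membrane proteoglycan agrin, Hexa, of a lysosomal hexosaminidase subunit, and Sulf2, of the second extracellular 6-O sulphatase. Agrn was lower with SP600125 (-0.92 ± 0.20, limma adjusted p = 0.0167), and the call was lost without SP600125 replicate 3 (-0.68) or U0126 replicate 3 (-0.84), with only the 2 groups compared (adjusted p = 0.0624) and without the intensity trend (0.0955). Hexa was lower by -0.54 ± 0.11 (adjusted p = 0.0103), lost without SP600125 replicate 1 (-0.45), on the 430 2.0 arrays only (adjusted p = 0.112) and without the intensity trend (0.14). The 3 tested Sulf2 probe sets did not all go the same way. The brighter of the called ones, 1442408_at, was lower with SP600125 than with U0126 (-0.48 ± 0.12, adjusted p = 0.0386, lost in 4 of 6 omissions, where it lay at -0.49 to -0.39). That call was also lost with no filter, only the 2 groups compared or no intensity trend (limma adjusted p of 0.056, 0.108 and 0.207). The other called one, 1447602_x_at, was higher (0.94 ± 0.15, limma adjusted p = 0.00267). The third, 1430388_a_at, was higher in each replicate and not called (0.75 ± 0.21, limma adjusted p = 0.0677). Since the brightest went the other way, no direction can be given for the gene.

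**Figure D3:**
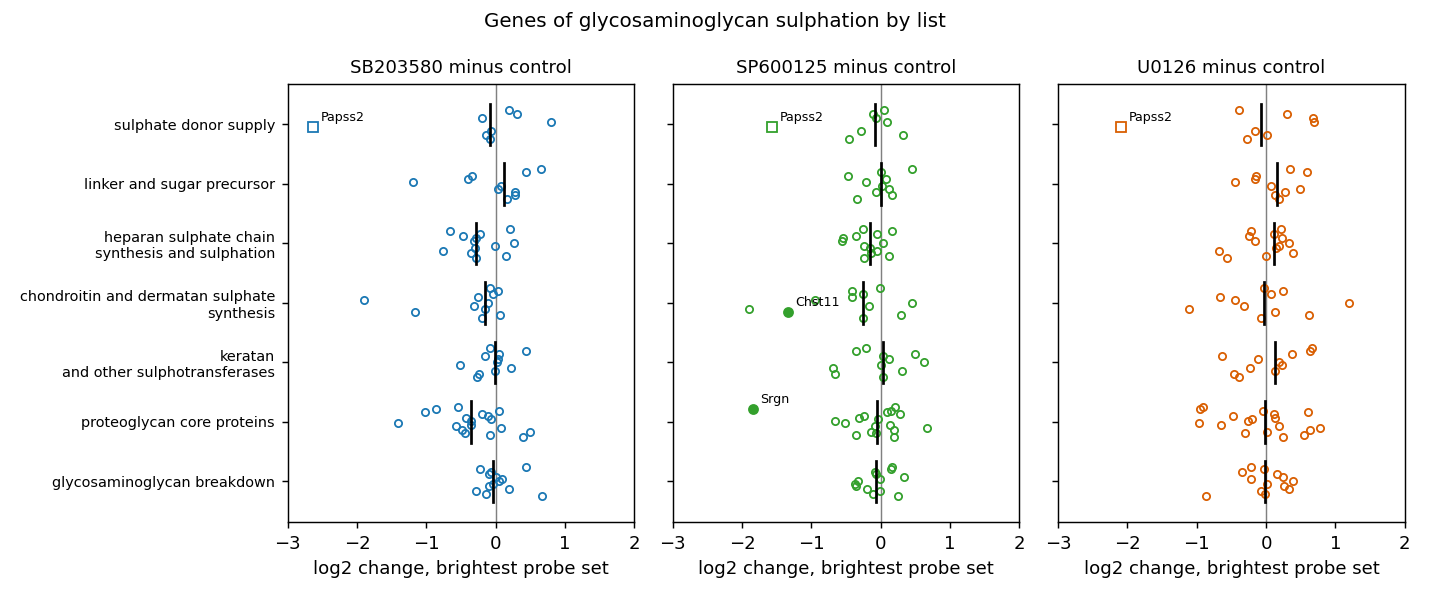
Difference from control on the log2(signal + 12.6) scale (horizontal) for the 84 tested pathway genes in 7 lists (vertical), 1 panel for each inhibitor and 1 point for the brightest tested probe set of each gene. Filled circles are called genes, open circles genes not called, open squares Papss2, for which no test is given, and black lines list medians. The line for sulphate donor supply includes Papss2, at -0.07, -0.09 and -0.07 with SB203580, SP600125 and U0126. Chst11 and Srgn are the only filled circles, both with SP600125.

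The labelled stage was checked against markers. All 8 trophectoderm markers, 8 of inner cell mass and epiblast and 12 of primitive endoderm were measured and passed the signal limit. Of 7 measured cumulus and granulosa cell markers 1 passed, of 6 of uterine and oviduct epithelium 3, and of 6 of blood and immune cells 3, and none of these 3 lists had a call against control. Their summed signals on the 430 2.0 arrays were 253 to 354, 1375 to 2317 and 218 to 468 over all groups. In replicate 1 the sums were 1324 to 1969, 1603 to 1782 and 415 to 500. Most of the first was the signal of Foxl2, at 1057.9 to 1714.4.

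Markers of primitive endoderm had a lower summed signal in all inhibitor groups, and most of their calls were with SP600125. Of the 12, 1 was called lower with SB203580 (Amn), 9 with SP600125 and 2 with U0126 (Gata6 and Amn), and none was called higher. Positive values, not called, were held by 2 markers with SB203580, 1 with SP600125 and 0 with U0126. Gata6 with SP600125, at 3815.4, 5278.8 and 5178.5, lay above the controls of its array type, at 2719.6, 4895.0 and 5088.3. The list medians were -0.57, -1.33 and -0.62. Genes called lower were 0.531, 0.547 and 0.492 percent of all genes in these contrasts. Their summed signal in replicates 1, 2 and 3 was 27167, 38819 and 39059 in the control group, 18727, 30554 and 33272 for SB203580, 17785, 28293 and 27024 for SP600125, and 18780, 26669 and 33763 for U0126. Every inhibitor sample lay below the controls of its array type. No marker of the list was under the signal limit in any group. The marker median was lowest with SP600125, but single markers did not all share this order. Gata6 was lowest with U0126, and Amn stood at -1.80, -1.60 and -1.53 (SE 0.26) with SB203580, SP600125 and U0126. The part of these markers in the Papss2 difference was not tested, and in whole embryos fewer cells of a type and less RNA per cell cannot be told apart. Trophectoderm markers had medians of -0.30, 0.01 and 0.00, with 1 call against control, Elf5 lower with SP600125. With SB203580 all 8 trophectoderm values were negative. The summed trophectoderm signal with SB203580, at 37315, 94369 and 97210, lay below the controls of its array type, at 43214, 104704 and 111419. This was not so with SP600125 or U0126. Inner cell mass and epiblast markers had medians of 0.09, -0.07 and 0.42, with Sox2 and Fgf4 higher with U0126.

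The genes most like Papss2 were found by the root mean square difference over the 12 samples between log2 values centred within array type, among 12606 other genes. The 5 nearest were Phldb2, of a protein of the cell cortex, Cers3, of a ceramide synthase, Il1r2, of a decoy receptor for interleukin 1, Amn, of a subunit of the cubilin receptor, and Cryab, of a small heat shock protein. Their root mean square differences were 0.62, 0.62, 0.63, 0.63 and 0.64 log2 units, where the Papss2 values themselves had a root mean square of 1.03 about the array type mean and the median gene differed by 1.08. Amn was also on the list of primitive endoderm markers. The samples share groups and controls, so this likeness is a description.

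Because these genes were picked for likeness to Papss2 in the same samples, a similar order of groups is built into the choice. By the difference from control, all 5 were lowest with SB203580, and Phldb2, Cers3 and Cryab were least low with SP600125, as Papss2 was. Cers3 on 1444740_at had 954.1, 531.7 and 657.2 in the control group. SB203580 samples read 449.8, 251.8 and 221.8, SP600125 samples 539.9, 330.5 and 337.0, and U0126 samples 510.1, 274.7 and 253.1, all below the controls of their array type. In the order SB203580, SP600125 and U0126, its differences from control were -1.21, -0.80 and -1.05. Phldb2 stood at -1.46, -0.41 and -0.81, Cryab at -1.47, -0.74 and -0.81, and Amn at -1.80, -1.60 and -1.53. Il1r2, with signals of 9.7 to 191.2 over all samples, stood at -1.82, -1.19 and -0.87 with an SE of 0.52.

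**Figure D4:**
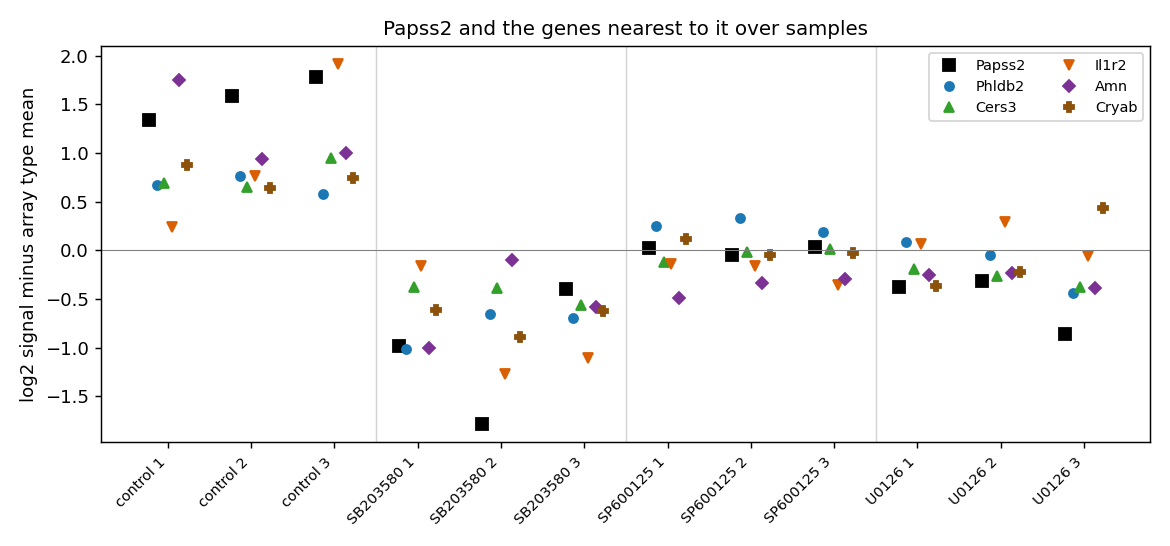
Log2(signal + 12.6) minus the mean of the array type (vertical) in each of the 12 samples (horizontal, group and replicate number) for Papss2 (black squares) and its 5 nearest genes. Grey lines part the groups; all 6 genes are above 0 in every control sample, and SB203580 replicate 2 is the lowest Papss2 sample.

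The quality of the arrays touched replicate 1 most. Actin signal from the 3' probes over that from the 5' probes, which reads RNA integrity and cDNA length, was 1.58 to 1.75 on the 430 2.0 arrays and 2.47, 2.81, 3.66 and 1.62 on the 430A arrays of control, SB203580, SP600125 and U0126. Its part in the replicate 1 values was not tested. Log2 signals correlated at 0.932 to 0.958 between 430 2.0 arrays and at 0.941 to 0.954 between the replicate 1 samples.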

How the data were processed

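Each probe set had 1 deposited linear signal intensity per array. Checked on the values, the mean of each array with 2 percent trimmed at each end was about 500. How the authors corrected background and summarised probes, and with which software, is not stated in the labels. The 430A and 430B arrays of replicate 1 were joined into 1 sample, with the 430A value for the 100 probe sets on both. Control probe sets were left out. Of 45037 probe sets, 34945 named 1 gene, 932 several and 9160 none. A probe set entered the tests when its mean 430 2.0 signal was at least 42.9, the 40th percentile over all probe sets, and 27022 did.

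Log2(signal + 12.6) was fitted with limma 3.58.1 in R 4.3.3, with the 4 groups and array type as terms, an intensity trend, 7 residual degrees of freedom and Benjamini-Hochberg adjustment over all probe sets tested. The fit was tested on simulated data. Array number limits the precision.

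Pathway lists were sulphate donor supply, linker and sugar precursors, heparan sulphate, chondroitin and dermatan sulphate, keratan and other sulphotransferases, core proteins and breakdown. A listed gene was called if at least 1 probe set was, and given by the brightest called. The genes named were all members, up to 4 called genes per list and comparison by the size of the moderated t, and the 5 genes nearest to Papss2. List medians used the brightest tested probe set of each gene. The members and lists were chosen with earlier results of these data known. Alternatives changed the added constant, the filter, the block, the normalization, the arrays, the groups fitted, the trend and the samples.

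Replicate numbers did not pair the samples (correlations of replicate 2 minus 3 between groups of 0.02 to 0.09), so the main model had no replicate block.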

Additional observations from a re-analysis of the deposited data

How the results depend on the processing

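Calls among the 17 member probe sets, all of them on Papss2 1434510_at, were 1 for SB203580 against control, 0 for SP600125, 1 for U0126 and 0 for each pair of inhibitors. Papss2 was chosen for its fall with SB203580 and U0126, so these counts describe that choice and are no test of it. Over all tested probe sets 0.389, 0.592 and 0.448 percent were called with SB203580, SP600125 and U0126 against control. The SB203580 count was 0 without the intensity trend. The SP600125 count was 1 with an added constant of 50 or with only the 2 groups compared in the fit. The U0126 count was 0 with an added constant of 1, with no filter, on the 430 2.0 arrays only or without the intensity trend. Leaving out 1 sample gave counts of 0 to 1 for SB203580, 0 for U0126 and 0 for SP600125. The cause was not tested. An added constant of 50 moved the Papss2 difference to -1.92 with SB203580, -1.27 with SP600125 and -1.62 with U0126. Over all settings it ranged from -3.06 to -1.92 with SB203580, -1.72 to -1.27 with SP600125 and -2.31 to -1.62 with U0126. With the replicate number as a block the counts were 1, 0 and 1 and the Papss2 differences -2.63, -1.57 and -2.09, so the block changed no member call. None of the 15 probe sets of the other genes was called in any setting run. The 9 pathway calls described for Chst11, Srgn, Tpst2, Agrn, Hexa and Sulf2 1442408_at were all lost without the intensity trend. No alternative turned the direction of a called value. Signals near the added constant of 12.6 limit what the dim Papss2 and Sulf1 probe sets can show.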
